A study of Mus musculus with 12 samples.

Results

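The complement system of tumour CD11c+ cells is described here through 10 genes: the C1q chains C1qa, C1qb and C1qc, the components C2, C3 and C4b, factor B (Cfb), properdin (Cfp) and the receptors C3ar1 and C5ar1. They were taken by matching each Ensembl identifier, without its version, to these symbols, and they are 10 of the 55401 genes in the table. All 10 passed the filter on low values and were among the 18274 genes tested.

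Live cells bearing CD45, found on all white blood cells, and CD11c, an integrin subunit that dendritic cells and a share of macrophages carry, were sorted by flow cytometry from B16-OVA tumours, a mouse melanoma line carrying ovalbumin as a model antigen. The mice were of wild-type (WT) genotype, and tumours had grown for 10 days before treatment. RNA from 12 libraries was sequenced, 3 in each of 4 groups. The combined group received 20 Gy of radiation on day 10 together with 20 mcg of a fusion protein, whose second dose of 10 mcg followed on day 14. The fusion protein group received the same 2 doses without radiation. The 20 Gy group received radiation alone, and the untreated group received neither. Collection of all tumours was on day 17. What the fusion protein consists of, and the sex and age of the mice, the labels do not state. Nor do they say whether each library stands for its own mouse, so p-values here reflect spread between libraries, which may be technical.

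Complement is a cascade of plasma proteins that coat targets and recruit white blood cells. In the classical pathway C1q binds immune complexes or dying cells, and its proteases cut C4 and C2 to form an enzyme that splits C3. In the alternative pathway factor B joins C3b to form another C3-splitting enzyme, which properdin stabilises. The small fragments released from C3 and C5 act on the receptors encoded by C3ar1 and C5ar1. Macrophages and some dendritic cells make C1q and properdin locally in tissues, and interferons are known inducers of factor B and C4.

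Libraries held 14462032 to 23985496 reads in genes. A set of 1754 sensory receptor genes (olfactory, vomeronasal and trace-amine) had reads for over 50% of its genes in 3 libraries, combined 1, 20 Gy 1 and 20 Gy 2, and for 4.79% to 39.68% in the others. The pigment-cell gene Tyrp1 was highest in library 3 of every group, at 202.8 (combined), 1147 (fusion protein), 4718 (20 Gy) and 464.5 (untreated) normalised counts, against at most 38.5 in the other libraries. The CD11c gene itself, Itgax, had 2226 to 9497 normalised counts in the 12 libraries. The 10 markers of conventional type 1 dendritic cells (cDC1) summed to 22859 to 40459, and the 15 macrophage markers to 9008 to 31427. The 10 T cell markers summed to 5417 to 34346, and the 8 B and plasma cell markers to 2408 to 31494. The 8 natural killer (NK) cell markers summed to 38118 to 42308 in combined and 33657 to 68810 in fusion protein libraries. In 20 Gy libraries the NK sum was 12891 to 18234, and in untreated ones 21011 to 23890. The part of these cells in the complement values was not tested. The macrophage marker Trem2 was at 0 in untreated library 2. In bulk RNA of sorted cells, a different number of cells of a type and a different amount of RNA per cell cannot be told apart.

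C4b, C2 and Cfb lie near each other on mouse chromosome 17, and each has a neighbour that bears on how its reads are counted. C4b (ENSMUSG00000073418.4, minus strand, chr17:34728380-34743882 in GRCm38) has a close copy, C4a (chr17:34809092-34823464), known in mice as the sex-limited protein gene. Their transcripts were identical at 96.16% of 5202 aligned coding bases. Of 5115 windows of 100 bases along the C4b coding sequence, 839 (16.4%) occurred exactly in C4a, so a read from such a window fits both genes. The stretch below, where the 2 transcripts differ at 13 of 60 bases (capitals), is shown because it is of the kind that tells the genes apart. It covers coding bases 2705 to 2764 of C4b-201 (chr17:34735430-34735489, minus strand) and bases 2745 to 2804 of the C4a-201 transcript, read from the reference transcripts.
C4b: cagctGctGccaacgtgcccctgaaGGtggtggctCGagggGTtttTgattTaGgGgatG
C4a: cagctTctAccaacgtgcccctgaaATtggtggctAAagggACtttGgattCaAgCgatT
Cfb (ENSMUSG00000090231.10, minus strand, chr17:34856374-34862518) shares 2246 of its 2825 exon bases (79.5%) on the same strand with a readthrough gene, Gm20547, which was listed at 0 reads in all 12 libraries. C2 (ENSMUSG00000024371.14, minus strand, chr17:34862604-34898265) shares 1656 of 3872 exon bases (42.77%) with it. Reads in shared exons may have been left uncounted, so the levels of Cfb and C2 are uncertain and are not compared per length with other genes.

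For C3 (ENSMUSG00000024164.15, chr17:57203970-57228136, minus strand) the 250 bases before the annotated start (chr17:57228137-57228386, GRCm38.p6, RefSeq) are printed because C3 passed the test after combined treatment. Capitals mark the 1 match to TTGCNNAA, the C/EBP form, which starts at position -45 counted from the start site.
C3 promoter: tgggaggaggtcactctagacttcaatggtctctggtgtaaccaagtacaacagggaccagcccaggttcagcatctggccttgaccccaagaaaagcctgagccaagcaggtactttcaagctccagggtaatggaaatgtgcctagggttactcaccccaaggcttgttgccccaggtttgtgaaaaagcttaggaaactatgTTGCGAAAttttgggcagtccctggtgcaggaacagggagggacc
TTGCNNAA was chosen after this sequence was seen, and 9.56% of 32851 promoters of the same length hold it on either strand. Promoters of 6 of the 10 genes were at hand (C1qb, C1qc, C3, Cfp, C3ar1 and C5ar1). Those of Cfb, C4b, C2 and C1qa were not, so these genes were not searched. The windows of C1qc (chr4:136892915-136893164) and C5ar1 (chr7:16259339-16259588) lie partly inside the GENCODE gene coordinates given below, and that of C3ar1 does so at its edge. None of the 6 held the interferon-stimulated response element core (GAAA, any 2 bases, GAAA; in 2.98% of all promoters), the interferon gamma activated site TTCNNNGAA (7.02%) or the NF-kB form (GGGA, any base, TTTCC; 0.356%), searched on both strands. C/EBP was matched in C3 alone of the 6.

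Of the 10 genes, Cfb, C4b and C3 passed the test in at least 1 comparison. After combined treatment all 3 rose against untreated cells, by log2 fold changes of 4.26 (Cfb), 6.57 (C4b) and 1.55 (C3). With the fusion protein alone Cfb rose by 3.45, and when the fusion protein was added to 20 Gy Cfb rose by 3.65 against 20 Gy. After 20 Gy alone none of the 10 passed the test, although all 10 fitted values were above 0, as were 9732 of all 18274. A log2 fold change here is that of the normalised count plus 1, which understates changes of genes at low counts, and ± after it is the SE of the limma fit. Rose, fell or changed is said only of an adjusted p under 0.05, by Benjamini-Hochberg over all 18274 genes.

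The counts of members stand against the calls over all genes as follows. Fusion protein against untreated, 1 of 10 rose, against 0.744% of all genes called. Combined against untreated, 3 of 10 rose, against 1.4% called. For combined against 20 Gy, 1 of 10 rose, against 1.03% called. For 20 Gy against untreated, combined against fusion protein and the interaction of radiation with fusion protein, 0 of 10 passed limma and 0% of all genes were called, and edgeR and DESeq2 also called 0 members in these 3 comparisons. At an unadjusted p under 0.05 these comparisons had 5, 0 and 1 of the 10, and 1231, 534 and 188 of all genes. DESeq2 called 45, 0 and 1 of all genes tested there, complement genes included, and edgeR called 0. The comparisons with untreated cells share the same 3 untreated libraries.

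**Figure D1:**
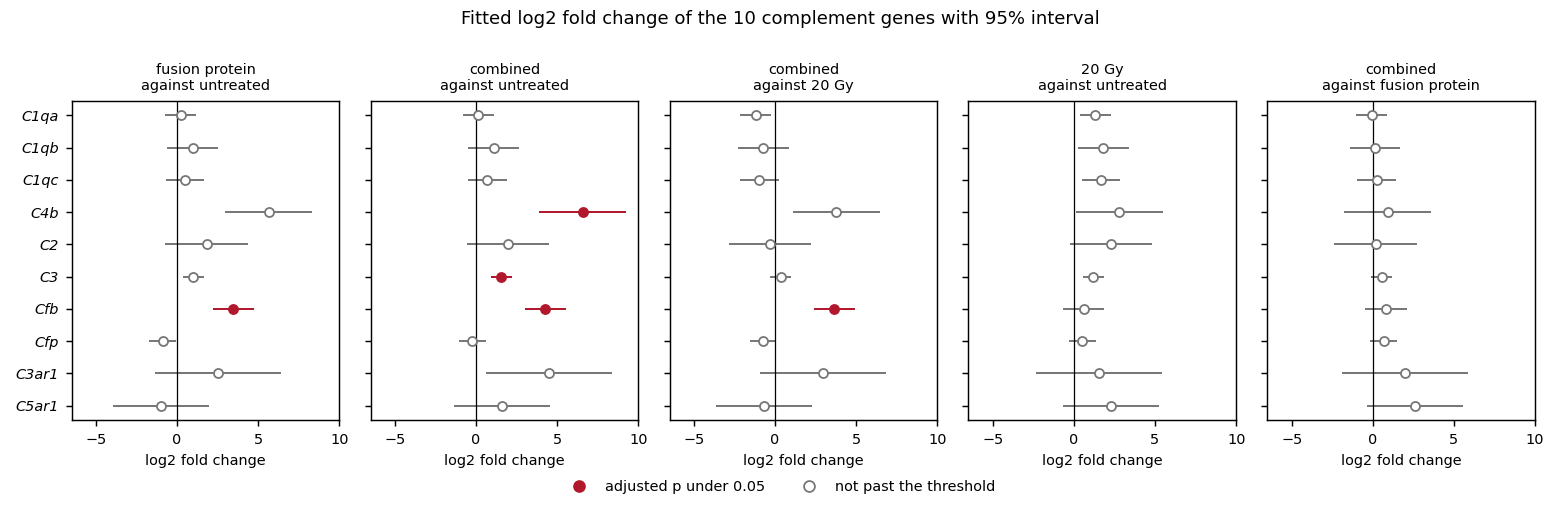
Fitted log2 fold change (x axis) of the 10 complement genes (rows) in the 5 pairwise comparisons, with 95% intervals from limma. Filled red points passed an adjusted p of 0.05: Cfb in 3 comparisons, and C4b and C3 combined against untreated.

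Cfb encodes factor B, the serine protease that supplies the enzymatic part of the alternative pathway C3 convertase. It had 216.7, 110.1 and 235.6 normalised counts in combined libraries 1, 2 and 3, 135.4, 90.2 and 84.6 in fusion protein libraries, 6.16, 13.9 and 26.2 in 20 Gy libraries and 4.49, 7.49 and 16.6 in untreated libraries. Every library that received the fusion protein, with or without radiation, was above all 6 that did not. Combined against untreated the log2 fold change was 4.26 ± 0.58 (limma adjusted p = 0.00356), a 19.1-fold difference. This call was kept without any 1 of the 6 libraries. It was lost without all 4 libraries numbered 1 (adjusted p = 0.114).

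With the fusion protein alone the log2 fold change of Cfb against untreated was 3.45 ± 0.58 (limma adjusted p = 0.0197). It was not called without fusion protein library 1 (adjusted p = 0.107), fusion protein library 3 (0.0618), untreated library 1 (0.0654) or untreated library 2 (0.0781), nor in a fit of these 2 groups alone (0.118). Leaving out the 3 libraries rich in receptor-gene reads, none of them in these 2 groups, gave 0.0558, and leaving out those numbered 1 gave 0.441. Against 20 Gy, combined treatment gave 3.65 ± 0.58 (limma adjusted p = 0.0102). That call was lost without combined library 1 (0.0709), combined library 3 (0.0782) or 20 Gy library 2 (0.0539), and without the libraries rich in receptor-gene reads, which leaves 1 library of the 20 Gy group, the log2 fold change was 2.58 (0.709). Without the libraries numbered 1 it was 3.01 (0.302). Combined against fusion protein the difference was 0.81 ± 0.58, with an interval of -0.46 to 2.07, and after 20 Gy alone it was 0.61 ± 0.58 against untreated (limma adjusted p = 0.845). The interaction for Cfb was 0.20 ± 0.82 (adjusted p = 1), an interval of -1.59 to 1.99.

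Of the 15 genes of a type I interferon list, 14 rose combined against untreated (median log2 fold change 3.84) and 13 combined against 20 Gy (3.18). With the fusion protein 12 rose (3.30), and after 20 Gy 0 (0.47), where 1 had an unadjusted limma p under 0.05. Of the 12 genes of an interferon gamma list, 2 rose combined against untreated (1.61), 2 combined against 20 Gy (1.69) and 2 with the fusion protein (1.28). After 20 Gy 0 of these 12 rose (-0.097). The part of either list in the Cfb result was not tested. Predicted genes were left out of the search for genes with log2 levels most like those of a member, here and below. Closest to Cfb over the 12 libraries were Irf7, a transcription factor of interferon responses (Pearson r = 0.982), and Nmi (0.981). Oas3, an antiviral sensor of double-stranded RNA (0.980), Zbp1, a sensor of Z-form nucleic acid (0.978), and Dtx3l (0.978) followed. These values describe libraries that share treatment and depth. Irf7 had 18117 to 26922 normalised counts in combined, 14951 to 20417 in fusion protein, 1318 to 4130 in 20 Gy and 1434 to 1965 in untreated libraries.

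**Figure D2:**
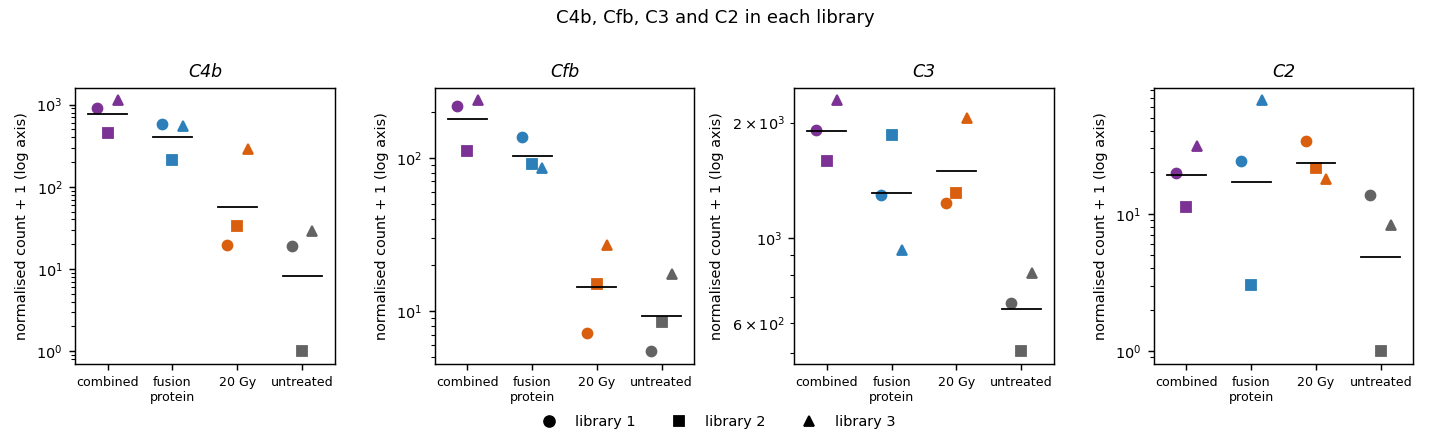
Normalised count plus 1 (log axis) of C4b, Cfb, C3 and C2 in each library of the 4 groups. Points are single libraries, their shape the library number, and bars are means on the log scale. For Cfb all 6 libraries that received the fusion protein lie at 84.6 or more and the other 6 at 26.2 or less.

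C4b encodes complement C4, which C1 proteases cut so that its larger part binds covalently to targets. It had 901.7, 456.9 and 1128 normalised counts in combined libraries 1, 2 and 3 and 574.3, 213.7 and 548.2 in fusion protein libraries. It had 18.5, 32.1 and 285.3 in 20 Gy libraries and 18.0, 0 and 27.9 in untreated libraries. The lowest fusion protein library was below 20 Gy library 3, while the groups given the fusion protein did not overlap the untreated one. The 0 in untreated library 2 allows up to 3.74 normalised counts (3 reads), a limit that covers counting error only. Combined against untreated C4b rose by 6.57 ± 1.22 (limma adjusted p = 0.0232). The size rests partly on that 0: without untreated library 2 the log2 fold change was 5.05, with an adjusted p of 0.05002.

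The C4b call was also lost without combined library 1 (adjusted p = 0.113), combined library 2 (0.0522) or combined library 3 (0.126), in edgeR (0.0504) and in a fit of these 2 groups alone (0.0566). Without the 3 libraries rich in receptor-gene reads it was 0.127, and without the libraries numbered 1 it was 0.222. With the fusion protein alone C4b was higher than in untreated cells by 5.64 ± 1.22, which missed the threshold (limma adjusted p = 0.0728) and passed it with the replicate number as a block (0.00232) and in DESeq2 (0.000216). With the block 2 of 10 members, C4b and Cfb, passed in that comparison, against 3.29% of all genes. Combined against 20 Gy the difference was 3.77 ± 1.22 (adjusted p = 0.282), and 20 Gy against untreated 2.80 ± 1.22 (adjusted p = 0.722), where 20 Gy library 3 had 285.3 normalised counts and the other two at most 32.1.

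The close copy C4a had 12.6 to 52.7 normalised counts in combined, 11.1 to 23.3 in fusion protein, 19.6 to 38.7 in 20 Gy and 2.50 to 21.0 in untreated libraries. It was below C4b in every library that received the fusion protein, and at or above C4b in 20 Gy libraries 1 and 2 and untreated libraries 1 and 2. Against untreated its log2 fold change was 1.27 ± 0.74 (combined, limma adjusted p = 0.545), 0.96 ± 0.74 (fusion protein, 0.887) and 1.70 ± 0.74 (20 Gy, 0.722, unadjusted p = 0.0414). Where shared windows sent reads between the copies cannot be seen in these counts.

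C2, the protease that joins C4b in the classical pathway C3 convertase, had 18.9, 10.2 and 30.2 normalised counts in combined, 23.3, 2.03 and 65.9 in fusion protein, 32.6, 20.4 and 17.0 in 20 Gy and 12.7, 0 and 7.24 in untreated libraries. The 20 Gy values lay above all untreated ones, and the others overlapped them. Its log2 fold changes against untreated were 1.98 ± 1.16 (combined, limma adjusted p = 0.545), 1.81 ± 1.16 (fusion protein, 0.812) and 2.28 ± 1.16 (20 Gy, 0.722).

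C3 is the protein on which all complement pathways meet. It had 1909, 1582 and 2286 normalised counts in combined libraries 1, 2 and 3, 1295, 1855 and 931 in fusion protein libraries, 1233, 1306 and 2056 in 20 Gy libraries and 677, 505.5 and 807 in untreated libraries. All 9 treated libraries were above all 3 untreated ones, the one member of which this was so in each of the 3 comparisons with untreated cells. C3 rose combined against untreated, by 1.55 ± 0.29 (limma adjusted p = 0.0248), or 2.92-fold. This call was lost without combined library 1 (adjusted p = 0.115), combined library 3 (0.148), untreated library 1 (0.0529) or untreated library 2 (0.123), with a log2 fold change between 1.36 and 1.70 in the 6 fits that left out 1 library. It was also lost without the 3 libraries rich in receptor-gene reads (0.173) and without the libraries numbered 1 (0.327).

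Monocyte markers differed in the same comparison as the 3 calls combined against untreated. Of 10, Ly6c2 (2.93 ± 0.55, limma adjusted p = 0.024), Hp (3.26 ± 0.65, 0.0316) and Plac8 (1.97 ± 0.40, 0.0343) rose, and 1 of the 10, Ly6c2, rose combined against 20 Gy. Their sum was 34353 to 43149 normalised counts in combined, 24306 to 39499 in fusion protein, 18174 to 27399 in 20 Gy and 14547 to 21890 in untreated libraries, with none at 0. Their part in the values of C3, C4b and Cfb was not tested.

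After 20 Gy alone C3 was higher by 1.19 ± 0.29 (limma adjusted p = 0.495, or 0.0704 blocked). The fusion protein alone gave 1.00 ± 0.29 (limma adjusted p = 0.237, or 0.0744 blocked). The groups that received the fusion protein and those that received radiation overlapped, and combined against 20 Gy (0.35 ± 0.29, interval -0.29 to 0.99) and against fusion protein (0.54 ± 0.29, interval -0.10 to 1.18) did not pass. The interaction for C3 was -0.65 ± 0.41 (adjusted p = 1). The genes nearest to C3 over the 12 libraries were Clec5a, a myeloid lectin receptor (Pearson r = 0.960), Aif1, a macrophage actin-binding protein (0.906), Gpx3 (0.901), Olfr433 (0.878) and Hspa1l (0.872).

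Values of the 3 libraries of each group did not overlap in either direction for 3 of the 10 genes with the fusion protein against untreated (C3, C4b and Cfb, higher), against 10.6% of all genes tested. After 20 Gy these were 4 (C1qb, C1qc, C2 and C3, higher), against 11.5%. Combined against untreated there were 4 (C3, C4b, Cfb and C3ar1, higher), against 17.8%. Between combined and 20 Gy there were 4, C4b and Cfb higher and C1qa and Cfp lower, against 17.9%.

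The 3 C1q chains, encoded side by side on chromosome 4 (C1qb chr4:136880129-136886187, C1qc chr4:136889804-136893065 and C1qa chr4:136895917-136898803, all on the minus strand), form the recognition molecule of the classical pathway. C1qa had 214, 277 and 382 normalised counts in combined, 235, 345 and 322 in fusion protein, 546, 497 and 975 in 20 Gy and 506, 134 and 248 in untreated libraries. C1qb had 343, 301 and 811 in combined, 324, 298 and 666 in fusion protein, 605, 569 and 1099 in 20 Gy and 431, 52.4 and 383 in untreated libraries. C1qc had 257, 367 and 580.0 in combined, 278, 273 and 452 in fusion protein, 687, 564 and 1041 in 20 Gy and 535, 93.6 and 255 in untreated libraries. For all 3 chains the highest library was 20 Gy library 3 and the lowest untreated library 2, and the 20 Gy values of C1qb and C1qc lay above all untreated ones.

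The log2 fold changes after 20 Gy were 1.32 ± 0.44 for C1qa (limma adjusted p = 0.707), 1.81 ± 0.71 for C1qb (0.722) and 1.65 ± 0.54 for C1qc (0.707), and none passed. With the block the values for C1qb and C1qc were 0.0852 and 0.0914, although the number was not taken as a pairing there. With it 0 of 10 members passed, against 0.383% of all genes. With the fusion protein added to 20 Gy all 3 chains were lower than with 20 Gy alone, by -1.18 ± 0.44 (C1qa, limma adjusted p = 0.395), -0.72 ± 0.71 (C1qb, 0.909) and -0.96 ± 0.54 (C1qc, 0.712), again not passing. Against untreated cells combined treatment gave 0.14 ± 0.44 for C1qa, 1.08 ± 0.71 for C1qb and 0.70 ± 0.54 for C1qc (adjusted p 0.604 to 0.943). The fusion protein alone gave 0.21 ± 0.44, 0.96 ± 0.71 and 0.47 ± 0.54 for C1qa, C1qb and C1qc. All 3 of these signs turned without untreated library 2, to -0.26, -0.02 and -0.18. Combined against fusion protein the differences were -0.07 ± 0.44 for C1qa, 0.13 ± 0.71 for C1qb and 0.23 ± 0.54 for C1qc. The interaction of C1qa, -1.39 ± 0.62, had an unadjusted p of 0.0464 and an adjusted p of 1 in limma.

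Macrophage markers are given beside the C1q chains. After 20 Gy all 15 had a fitted value above 0, as had 9732 of all 18274 genes. The median of the 15 was 1.39 on the log2 scale, with 0 past the threshold. At an unadjusted limma p under 0.05 there were 2, against 1231 of all 18274 genes. Combined against 20 Gy 9 were lower and 6 higher, where 9427 of all 18274 genes were lower. Here the markers had a median of -0.48, with 0 past the threshold. At an unadjusted limma p under 0.05 there were 5, against 1643 of all 18274 genes. Single markers went opposite ways: Mrc1 averaged 1055 normalised counts in 20 Gy and 89.6 in combined libraries, and Fcgr1 505 and 3427. Combined against untreated 1 of the 15 rose, against 1.4% of all genes called. The summed level of the 15 markers was 15894 to 25032 normalised counts in combined, 14881 to 23327 in fusion protein, 26464 to 31427 in 20 Gy and 9008 to 23601 in untreated libraries. Their part in the C1q values was not tested. Per 1000 macrophage marker counts, the summed C1q chains had 34.3, 59.5 and 70.8 counts in combined, 35.9, 47.6 and 96.7 in fusion protein, 61.5, 61.6 and 99.1 in 20 Gy and 62.4, 31.0 and 59.7 in untreated libraries. On this scale 20 Gy libraries 1 and 2 fell within 1 count of untreated library 1, and 20 Gy library 3 was the highest, followed by fusion protein library 3. The genes nearest to C1qa over the 12 libraries were C1qc (Pearson r = 0.940), Gkap1 (0.919), Col4a2, a basement membrane collagen chain (0.909), Fmn1 (0.894) and Mcc (0.878). C1qb was not among them.

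**Figure D3:**
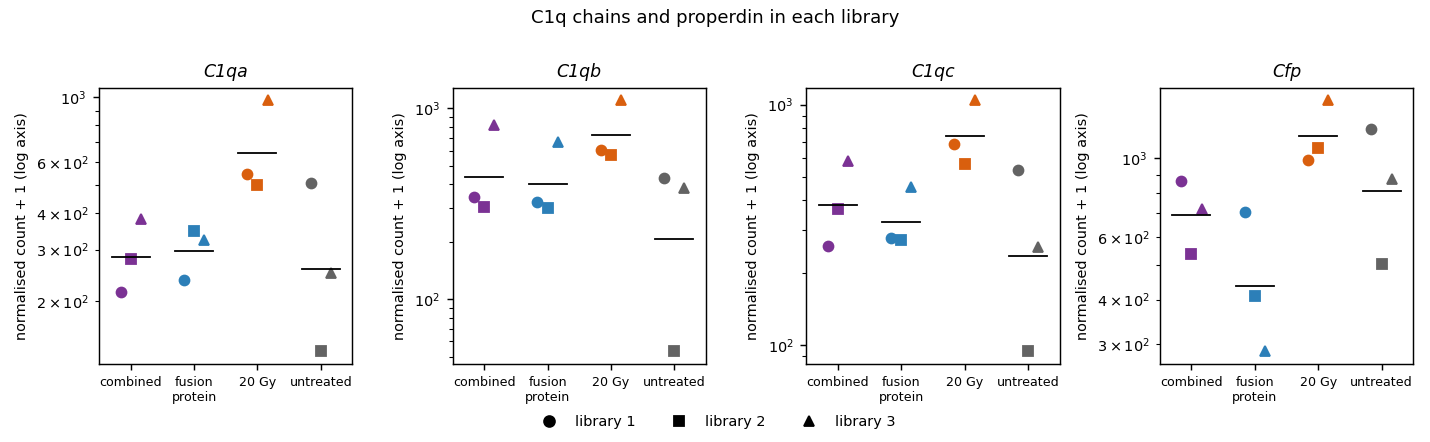
Normalised count plus 1 (log axis) of C1qa, C1qb, C1qc and Cfp in each library of the 4 groups. Points are single libraries, their shape the library number, and bars are means on the log scale. The 3 C1q chains are highest in 20 Gy library 3 and lowest in untreated library 2.

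Cfp (chromosome X, chrX:20925454-20931555, minus strand) encodes properdin, the one known positive regulator of the cascade, which holds the alternative convertase together. It had 863, 536 and 719 normalised counts in combined, 707, 408 and 286 in fusion protein, 989, 1069 and 1457 in 20 Gy and 1206, 502 and 876 in untreated libraries. The 20 Gy values lay above all combined ones, and the untreated libraries spanned most of the range. Its log2 fold change was -0.89 ± 0.37 with the fusion protein (limma adjusted p = 0.528), -0.22 ± 0.37 combined against untreated (0.879), 0.51 ± 0.37 after 20 Gy (0.791) and -0.74 ± 0.37 combined against 20 Gy (0.639).

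Normalised counts per kilobase of exon allow levels of the members other than Cfb and C2 to be ordered. The place of C4b is less certain, since 16.4% of its 100-base coding windows also occur in C4a. In untreated cells the order was Cfp (496 ± 203, SD, n = 3), C1qa (285 ± 184), C1qb (265 ± 189), C1qc (153 ± 116), C3 (129 ± 29.4), C5ar1 (22.0 ± 20.4), C3ar1 (13.5 ± 20.0) and C4b (2.69 ± 2.49). Each gap to the next gene was smaller than the SD of the higher one, except those from Cfp to C1qa and from C3 to C5ar1. In combined cells the order was C1qb (446 ± 260), Cfp (407 ± 94.5), C3 (374 ± 68.5), C1qa (279.6 ± 81.4), C1qc (208 ± 85.0), C3ar1 (175 ± 179), C4b (146 ± 59.96) and C5ar1 (52.8 ± 41.8). There the gaps from C3 to C1qa and from C4b to C5ar1 exceeded the SD of the higher gene, and the others did not.

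C3ar1 and C5ar1 encode the receptors of the fragments C3a and C5a, which draw and activate myeloid cells. C3ar1 (chr6:122847138-122856161, minus strand) had 191.5, 442 and 1631 normalised counts in combined libraries 1, 2 and 3, 130.1, 23.3 and 716 in fusion protein libraries, 22.0, 11.8 and 962 in 20 Gy libraries and 4.49, 12.5 and 157 in untreated libraries. Library 3 was highest in every group, and only the combined group lay wholly above the untreated one. C5ar1 (chr7:16246743-16259540, minus strand) had 62.9, 84.9 and 259 in combined, 41.3, 1.01 and 72.5 in fusion protein, 118, 78.2 and 582 in 20 Gy and 50.2, 7.49 and 112 in untreated libraries. Library 3 was again highest in every group, and all 3 treated groups overlapped the untreated one.

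The spread between libraries set wide errors for both receptors. Combined against untreated C3ar1 was higher by 4.51 ± 1.77, which did not pass (limma adjusted p = 0.316) but passed with the replicate block (0.00342), where 4 of 10 members, C3, C4b, Cfb and C3ar1, were called against 7.73% of all genes. Without the 4 libraries numbered 3 the log2 fold change of C3ar1 was 5.08 (adjusted p = 0.0519). Fusion protein alone gave 2.54 ± 1.77 (0.858), and 20 Gy alone gave 1.53 ± 1.77 (0.875), turning to -0.41 without 20 Gy library 3. Combined against 20 Gy it was 2.98 ± 1.77 (0.732), turning to -0.18 without the 3 libraries rich in receptor-gene reads. That fit leaves 20 Gy library 3 alone in its group, with 962 normalised counts of C3ar1. Combined against fusion protein the value for C3ar1 was 1.98 ± 1.77 (adjusted p = 1).

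C5ar1 gave 1.62 ± 1.35 combined against untreated (limma adjusted p = 0.704), -0.99 ± 1.35 with the fusion protein (0.983), 2.27 ± 1.35 after 20 Gy (0.741), -0.65 ± 1.35 combined against 20 Gy (0.976) and 2.61 ± 1.35 combined against fusion protein (adjusted p = 1). The value with the fusion protein rests on library 2, with 1.01 normalised counts: without it the log2 fold change was 0.61.

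The libraries numbered 3 also had the highest summed level of the mature regulatory dendritic cell markers in each group, at 29948 (combined), 32404 (fusion protein), 45181 (20 Gy) and 25097 (untreated) normalised counts, and the highest Tyrp1. What the library number stands for is not stated in the labels, and the part of these differences in the receptor values was not tested. Markers of neutrophils, cells known to carry the C5a receptor, were summed as normalised counts. In the order of libraries 1, 2 and 3 the sums were 7817, 2243 and 6398 in combined, 5802, 441 and 1525 in fusion protein, 7019, 5338 and 3980 in 20 Gy and 2813, 149 and 289 in untreated libraries. The neutrophil markers were thus highest in library 1 of every group, while C5ar1 was highest in library 3. In the fusion protein and untreated groups they were lowest in library 2, where C5ar1 was lowest too. In the combined group they were also lowest in library 2, but C5ar1 was lowest in library 1 (62.9). In the 20 Gy group they were lowest in library 3, where C5ar1 was highest (582). The part of the neutrophil markers in the receptor values was not tested. Of the 12 genes, Camp and Ly6g were at 0 in fusion protein library 2, Retnlg and Ly6g in fusion protein library 3, S100a8 and Ly6g in untreated library 2 and Lcn2 in untreated library 3. The genes nearest to C3ar1 over the 12 libraries were Nampt, an enzyme of NAD synthesis (Pearson r = 0.973), Psmb6, a proteasome subunit (0.969), Upp1, a uridine phosphorylase (0.968), Il1rn, the interleukin-1 receptor antagonist (0.967), and Car13 (0.966).

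**Figure D4:**
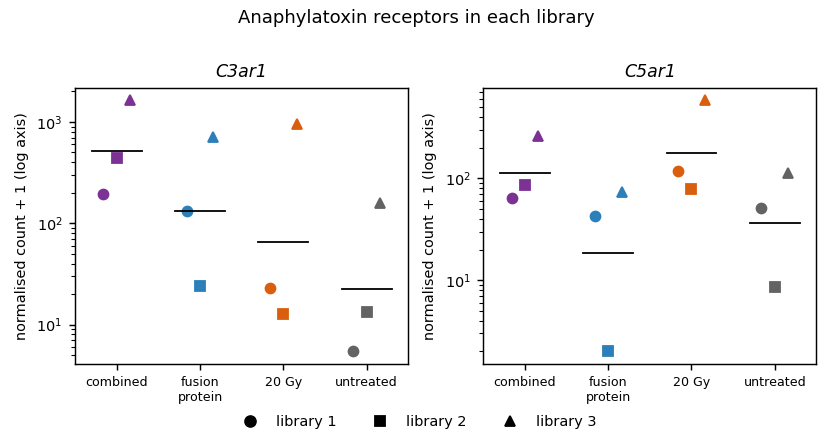
Normalised count plus 1 (log axis) of C3ar1 and C5ar1 in each library of the 4 groups. Points are single libraries, their shape the library number, and bars are means on the log scale. Library 3 (triangles) is highest in every group for both genes.

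Of 48 other complement genes in 4 lists, 27 passed the filter, and limma called 0 of them in any of the 6 comparisons, as did edgeR and DESeq2. At an unadjusted p under 0.05 limma had 1 of the 27 with the fusion protein, 3 after 20 Gy and 0 combined against untreated. It had 2 combined against 20 Gy, 1 combined against fusion protein and 0 in the interaction. Of all 18274 genes tested, 1536, 1231, 2276, 1643, 534 and 188 had such a p, in the same order of comparisons. Of the proteases and late components 6 of 15 were tested, with a median log2 fold change against untreated of 0.55 (combined), -0.13 (fusion protein) and 1.13 (20 Gy). The medians over all genes in these comparisons were 0.02, -0.01 and 0.04. C1s1, C1s2, C1rb, C7, C8b, C8g, C9, Cfd and Masp2 were below the filter. C6, a subunit of the membrane attack complex, reached 198.4 normalised counts in untreated library 1 and 0 in untreated libraries 2 and 3, with a log2 fold change of 3.57 ± 1.81 after 20 Gy (limma adjusted p = 0.722). Masp1, a lectin pathway protease, had at most 33.7 normalised counts, with 2.26 ± 0.80 combined against fusion protein (limma adjusted p = 1, unadjusted p = 0.016).

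Of 8 recognition molecules 4 were tested. All 4 were higher after 20 Gy (median 1.73), as were 9732 of all 18274 genes tested. Combined against 20 Gy all 4 were lower (median -1.76), as were 9427 of all genes. Of the 8, 0, 1 and 3 had 0 reads in 20 Gy libraries 1, 2 and 3. In combined libraries these were 1, 5 and 2, and in untreated ones 4, 6 and 5. Among the 3 libraries rich in receptor-gene reads are 20 Gy libraries 1 and 2 and combined library 1. Their part here was not tested. Fcna, a ficolin of the lectin pathway, had 73.7, 7.08 and 41.4 normalised counts in combined, 107, 0 and 7.69 in fusion protein, 543, 410.4 and 15.7 in 20 Gy and 377, 1.25 and 0 in untreated libraries, so it was high in 20 Gy libraries 1 and 2 and untreated library 1 (20 Gy against untreated 4.03 ± 2.29, limma adjusted p = 0.737). Colec12, a scavenger receptor with a collectin domain, gave -1.67 ± 0.70 combined against 20 Gy (0.494), and Fcnb 2.19 ± 1.68 after 20 Gy (0.798).

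Of 15 inhibitors 8 were tested, with a median log2 fold change against untreated of -0.17 (combined), -0.10 (fusion protein) and 1.14 (20 Gy). Serping1, the C1 inhibitor, had at most 29.4 normalised counts, with 1.86 ± 0.87 combined against fusion protein (limma adjusted p = 1, unadjusted p = 0.0557). Cr1l, the rodent membrane regulator Crry, had 823 to 1144 normalised counts in the 12 libraries, with a log2 fold change of -0.29 ± 0.18 combined against untreated (limma adjusted p = 0.563).

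Of 10 other receptors 9 were tested, with a median of 0.87 after 20 Gy and 0.76 combined against untreated. Lrp1, a scavenger receptor that also binds C1q on phagocytes, had 4321, 2079 and 5868 normalised counts in combined, 3041, 950.2 and 2769 in fusion protein, 9653, 8263 and 7892 in 20 Gy and 5137, 975 and 2180 in untreated libraries. Its 20 Gy values lay above all others, with 1.95 ± 0.60 against untreated (limma adjusted p = 0.67). Lrp1 passed there with the replicate block (0.0475), although the number was not taken as a pairing for 20 Gy against untreated. C5ar2, the second C5a receptor, gave 1.83 ± 0.74 after 20 Gy (0.722). Cd93, an endothelial and myeloid glycoprotein once named a C1q receptor, gave 1.36 ± 0.62 after 20 Gy (0.722), and 1.26 ± 0.62 combined against untreated (0.452), which passed with the block (0.036).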

How the data were processed

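The authors, per the submitters' processing notes, used FastQC, Trimmomatic, STAR, featureCounts and DESeq2 with the mouse build mm10, tool versions and settings being not given in the sources used here. As stated in the labels' protocols, libraries were stranded total RNA from low input. The deposited signal values are DESeq2-normalised counts. Multiplied by a recovered size factor, 100% of values were whole reads within 0.001. Symbols, coordinates and exon lengths came from GENCODE vM21 (GRCm38), matching 99.53% of identifiers.

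Log2 of the normalised count plus 1 was fitted with limma 3.58.1 for genes with at least 10 in 3 libraries, 4 groups in 1 fit, two-sided, with 8 residual degrees of freedom. Steps were tested on simulated data. The members and lists were chosen with earlier results of these data known. All members were named, and of the other lists those past the threshold and the 3 of smallest p in each. For C1qa, C3, Cfb and C3ar1 the 5 tested genes of highest Pearson r were named, with predicted genes left out. Lrp1 and Cd93 under the block, Itgax, Tyrp1, Ly6c2, Hp, Plac8, Trem2, Mrc1, Fcgr1 and the neutrophil genes were named after their values were seen.

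Against untreated, residuals of libraries with the same number had correlations of 0.334 to 0.389 for combined, 0.473 to 0.621 for fusion protein and 0.156 to 0.496 for 20 Gy libraries, and of 0.41 to 0.484 between combined and fusion protein. For 20 Gy library 2 the value with untreated library 2 was 0.156, below its highest with another untreated library (0.351). The number was therefore not taken as a pairing for 20 Gy against untreated, and blocked values there are only a description. For the other comparisons of this paragraph the replicate block is given where it changes a call. Alternatives were pseudocount 5, no filter, only the groups compared, the block, TMM scaling, edgeR 4.0.16 and DESeq2 1.42.0 on recovered reads, and leaving out libraries. Protein sequences were not used here, and 1 of the other complement genes is not reported here.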

Additional observations from a re-analysis of the deposited data

How the results depend on the processing

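Of 1010 single-gene values under alternatives, 922 kept their direction and side of the threshold, 27 lost a call, 7 gained one and 54 changed sign, none of the 54 called in the limma fit. The number of complement members called with the fusion protein against untreated was 1, and became 2 with pseudocount 5, with no filter, with the replicate block and in DESeq2, and 0 in a fit of the compared groups only. It was 0 without the libraries rich in receptor-gene reads and 0 without the libraries numbered 1, sets chosen after seeing the data. Combined against untreated, 3 members became 1 and 0 under these last 2 settings. Combined against 20 Gy, 1 became 0 without the libraries numbered 1. Leaving out those rich in receptor-gene reads leaves 1 library of the 20 Gy group, so no count is given there. Without the libraries numbered 3, also chosen afterwards, no count of complement members changed by over 1.5 times. Leaving out 1 library gave 0 to 1 with the fusion protein, 1 to 3 combined against untreated and 0 to 1 combined against 20 Gy. Calls over all genes with pseudocount 5, with no filter and in the fits that leave out libraries are not given here. Under these settings a change in complement calls cannot be told from a change over all genes. Over all genes, calls with the fusion protein, after 20 Gy, combined against untreated and combined against 20 Gy numbered 136, 0, 256 and 188, with the block 602, 70, 1413 and 834 and in DESeq2 464, 45, 755 and 550. In a fit of the compared groups only, the complement comparison of fusion protein with untreated called 18 genes and combined with untreated 149. TMM scaling moved the median of all genes by under 0.02. The causes were not tested.

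Combined against 20 Gy, same-numbered libraries correlated at 0.01 to 0.505, so the number was not taken as a pairing there. With the replicate block 3 complement members, Cfb, C4b and C3ar1, were called in that comparison, against 4.56% of all genes, with adjusted p 0.0202 for C4b and 0.043 for C3ar1. Blocked calls of members against untreated were those given with C4b and C3ar1, and the block changed no other member's call.

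None of the values that changed sign had passed the test. For C2 combined against fusion protein the log2 fold change was -0.046 with pseudocount 5, -0.61 in edgeR and -0.62 in DESeq2. For C1qa combined against untreated it was -0.047 in edgeR, -0.026 in DESeq2 and -0.10 without the libraries numbered 3. In the interaction, edgeR gave -1.13 for C3ar1 and -0.36 for C5ar1, and DESeq2 -1.14 for C3ar1 and -0.38 for C5ar1. Leaving out the libraries rich in receptor-gene reads leaves 20 Gy library 3 alone in its group. Values combined against 20 Gy were then 0.055 for C2, -0.11 for C3 and -0.18 for C3ar1, and C1qa combined against fusion protein was 0.13. The interaction in that fit was -0.87 for Cfb, -0.34 for Cfp, -2.72 for C3ar1 and -0.97 for C5ar1. The interaction without the libraries numbered 3 was -0.12 for Cfb and -0.062 for Cfp, and without those numbered 1 it was -0.052 for Cfp.

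Leaving out 1 library in turn moved the log2 fold change with the fusion protein against untreated between -0.26 and 0.70 for C1qa, -0.020 and 1.49 for C1qb, -0.18 and 1.07 for C1qc, and -2.04 and 0.61 for C5ar1. After 20 Gy C3ar1 lay between -0.41 and 2.93. Combined against untreated the range was -0.33 to 0.63 for C1qa and -0.57 to 0.063 for Cfp. Combined against 20 Gy it was -0.65 to 0.086 for C2 and -1.25 to 0.21 for C5ar1. Combined against fusion protein it was -0.28 to 0.13 for C1qa, -0.32 to 0.49 for C1qb, -0.079 to 0.51 for C1qc and -1.08 to 1.16 for C2. In the interaction it was -0.96 to 2.38 for C3ar1, -1.26 to 1.40 for C5ar1, -0.30 to 0.66 for Cfb and -0.15 to 0.51 for Cfp.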
